A study of Mus musculus with 48 samples.

Results

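The genes described here serve protein folding and the stress response of the endoplasmic reticulum (ER). They are 41 mouse genes chosen by name for their known roles and matched by symbol to the gene identifiers of 3 raw count tables that list 39017 genes each. A gene was kept where at least 4 libraries of a table held 10 or more of its counts, which left 40 of the 41. Derl3, a member of the Derlin family, had 0 to 4 counts per library and was not kept. Hyou1 passed this rule but had only 2 to 18 counts at day 4 and 1 to 16 counts at day 7, and was tested on days 5, 6 and 9 only, so that 39, 40 and 39 genes were tested at day 4, on days 5, 6 and 9, and at day 7.

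Proteins bound for the membrane or for secretion enter the ER through the Sec61 channel, are held by chaperones such as BiP (encoded by Hspa5) and GRP94 (Hsp90b1), receive disulphide bonds from protein disulphide isomerases, and leave for the Golgi once folded. Chains that fail are drawn back to the cytosol and degraded, a route called ER-associated degradation. When unfolded chains pile up, the sensors IRE1 (Ern1), PERK (Eif2ak3) and ATF6 are activated, and the factors they release, spliced XBP1 and cleaved ATF6 among them, raise transcription of the chaperone genes. Counts per gene do not show whether Xbp1 mRNA was spliced or ATF6 was cleaved.

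The study asked how the histone methyltransferase gene Setd1a acts in quiescent neural stem cells of the adult hippocampus. All 48 libraries came from cultures of neural progenitor cells grown from the dentate gyrus of 7 to 8-week-old Hopx-CreERT2::Setd1a fl/fl::H2B-GFP mice, which carry a tamoxifen-inducible Cre under the Hopx locus, floxed Setd1a alleles and a nuclear GFP reporter. Quiescence was induced with BMP4 and FGF2 after EGF was withdrawn. WT cultures received a lentivirus carrying GFP and KO cultures a lentivirus carrying Cre and GFP, so WT cells hold the same floxed alleles, and loss of Setd1a cannot be told apart from the presence of Cre. RNA was collected at day 4 (WT and KO), on days 5, 6 and 9 (WT and KO) and at day 7, where WT and KO cultures had also been given either DMSO or ORY-1001 (ORY), which blocks LSD1, an enzyme that removes methyl groups from histones. Each of these 12 groups had 4 libraries, stated to come from independent cultures.

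Libraries held 3.14 M to 20.6 M counts. Setd1a itself had mean levels of 1.63 to 3.88 CPM (counts per M counts of the library) per group, from 0 to 65 counts in a library, and was not called different between KO and WT on any day. Since the floxed part of the gene was not counted apart, this does not check the labels. All 12 markers of radial glia and astroglia were detected in every group, at a summed level of 13720 to 22110 CPM. Summed levels over the groups were 433.2 to 730.7 CPM for neuronal markers and 175.5 to 426.6 CPM for oligodendrocyte markers. Fibroblast markers summed to 15.56 to 187.5 CPM, with the highest value in WT at day 9. The sums were 18.58 to 58.14 CPM for microglia and 16.78 to 71.98 CPM for endothelial and mural cells. On days 5, 6 and 9, libraries 1 and 3 of each group lay close together, as did libraries 2 and 4. The distance used was the chi-square of the counts of 2 libraries over the genes tested, per degree of freedom. It was 1.783 to 2.427 within these pairs, against 2.823 to 9.196 between other pairs. If each such pair were 1 culture, n would be 2 a group, so results there are also given, where the call is lost, with the paired libraries summed. Bulk counts do not separate fewer cells of a type from less RNA per cell.

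Per kilobase of exon, Canx, the membrane-bound lectin chaperone calnexin, had the highest level of the 41 genes in 12 of 12 groups. In WT at day 5 it stood at 586 ± 22.3 CPM per kb (SD, n = 4), followed by Hsp90b1 at 405 ± 19.2 CPM per kb, Pdia6, a disulphide isomerase, at 385 ± 19.1 CPM per kb and Tmbim6, the ER membrane protein Bax inhibitor 1, at 277 ± 11.9 CPM per kb. Hsp90b1 and Pdia6 did not differ beyond their spread, while the gaps on either side of them exceeded it. At the lower end, Ern1 stood at 1.31 ± 0.34 CPM per kb and Hyou1, whose protein exchanges nucleotide on BiP, at 0.363 ± 0.115 CPM per kb. All 41 genes together took 0.885% to 1.34% of the counts of a library on average, with the lowest shares at day 6 (0.894% in WT and 0.885% in KO).

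ATF6 and its partner NF-Y are known to bind the ER stress response element (ERSE) in the promoters of many chaperone genes. Promoter sequence of 300 bases, 250 before and 50 after the RefSeq start on GRCm38.p6, was given for 33 of the 41 genes and searched on both strands. Hyou1, Manf, Erp29, Atf6, Derl1, Sec61a1, Ssr2 and Tmbim6 were not searched. The ERSE, spelled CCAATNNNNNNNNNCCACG, was found in 10 of the 33 promoters (30.3%), against 37 of the promoters of 27025 genes (0.137%). The ERSE-II, ATTGGNCCACG, was found in 2 of 33 (6.06%) against 0.0444% of all genes. An XBP1-type element, TGACGTGG, was found in 1 of 33 (Txndc5) against 0.714% of all genes, and an ATF4-type element, TGATGCAA, in 1 of 33 (Herpud1) against 1.03%. The ERSE and the ERSE-II share the letters CCACG, and TGACGTGG ends in their reverse complement. The matches are letters in a window and do not show that a factor was bound.

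The first windows below hold an ERSE match of each of the 7 ERSE genes called lower at day 6 than at day 5 in WT. They were chosen by that call, and Canx was not called in KO. Whether a match goes with a change was not tested. The paired CCAAT and CCACG elements are in capitals (ATTGG and CGTGG where the match lies on the other strand), and each sequence reads 5′ to 3′ along its gene.
Hspa5, chr2:34772020-34772048 (+), 65 to 47 bases before the start, within an exon of a longer GENCODE transcript: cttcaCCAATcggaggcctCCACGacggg
Hsp90b1, chr10:86705521-86705563 (−), 107 to 89 bases before the start: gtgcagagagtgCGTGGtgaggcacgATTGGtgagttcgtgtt
Pdia6, chr12:17266479-17266521 (+), 98 to 80 bases before the start: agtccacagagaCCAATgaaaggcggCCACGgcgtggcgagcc
Calr, chr8:84847063-84847105 (−), 162 to 144 bases before the start: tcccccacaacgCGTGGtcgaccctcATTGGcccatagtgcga
Creld2, chr15:88819508-88819550 (+), 126 to 108 bases before the start: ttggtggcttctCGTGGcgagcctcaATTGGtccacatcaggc
Dnajc3, chr14:118937815-118937857 (+), 105 to 87 bases before the start: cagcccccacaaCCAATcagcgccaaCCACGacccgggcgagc
Canx, chr11:50325788-50325830 (−), 145 to 127 bases before the start: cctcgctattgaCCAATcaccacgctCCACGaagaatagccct
Herpud1, which behaved differently from these, carried an ERSE-II 52 to 42 bases before its start at chr8:94386365-94386399 (+): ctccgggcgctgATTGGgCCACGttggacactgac
Dnajb11 had an ERSE-II 8 to 18 bases after its start. Hsp90b1 carried a second ERSE, and Ero1lb, Syvn1 and Derl3 the other 3. The matches of Hspa5 and Dnajb11 lie in a GENCODE exon, and the other windows printed lie before their gene's GENCODE start.

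The comparison of day 6 with day 5 asks how the levels moved between these days in quiescence medium. The paper states that this medium was renewed every 2 days. Total time in the medium therefore cannot be told apart from time since the last change, here or in the comparison of day 9. In WT, 18 of the 40 genes tested were lower at day 6 and 3 were higher (edgeR quasi-likelihood test, Benjamini-Hochberg adjusted p under 0.05), against 22.6% and 21.5% of all genes tested. Their median log2 fold change was -0.169, against 0.0168 for all genes. In KO, 20 of 40 were lower and 2 higher, against 21.5% and 21.5% of all genes, with a median of -0.287 against 0.0104. The 18 and the 20 shared 14 genes, which is 77.8% of the first list and 70.0% of the second. WT and KO have no library in common here, but they share the days and 1 estimate of the spread. At day 6 the deviations from the group mean of libraries with the same number correlated between WT and KO (r 0.171 to 0.243). The overlap therefore cannot be read as an independent repeat.

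The chaperones of the ER lumen and their helpers moved furthest. Of 9 tested, 8 were lower at day 6 in WT and 7 in KO. Hspa5, on chromosome 2 (34771970 to 34777547), stood in the WT libraries 1 to 4 at 904.3, 855.1, 905.1 and 904.3 CPM at day 5 and at 324.9, 311.9, 319.7 and 296.1 CPM at day 6. In KO it stood at 972.4, 860.8, 936.5 and 835.8 CPM at day 5 and at 363.1, 338.0, 353.7 and 344.5 CPM at day 6. Every day 6 library lay far below every day 5 library in both genotypes. The log2 fold change was -1.51 ± 0.05 (SE) in WT (edgeR adjusted p = 1.19e-23) and -1.36 ± 0.05 in KO (adjusted p = 2.28e-22), and summing the paired libraries left adjusted p-values of 2.34e-10 and 6.71e-10. Hsp90b1 had 1518, 1659, 1670 and 1684 CPM in WT at day 5 and 648.8, 619.7, 672.5 and 639.8 CPM at day 6, with no overlap. Its log2 fold change was -1.34 ± 0.05 in WT and -1.09 ± 0.05 in KO. Of its exonic length 15.7% is shared with other annotated genes, and these libraries do not keep strand, so reads of overlapping genes cannot be told apart.

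The secreted stress protein Manf, which protects ER-stressed cells, had 139.8, 135.4, 153.8 and 139.1 CPM in WT at day 5 and 62.51, 58.65, 60.55 and 59.04 CPM at day 6. It was lower by a log2 fold change of -1.24 ± 0.07 in WT and -1.49 ± 0.08 in KO. Creld2, another secreted ER protein of the stress response, had 26.83, 21.32, 26.08 and 18.3 CPM in WT at day 5 and 11.93, 10.88, 15.37 and 11.12 CPM at day 6. The day 6 values were lower in both genotypes, by -0.90 ± 0.17 in WT and -1.46 ± 0.17 in KO on the log2 scale. Dnajb11 and Dnajc3, whose products are co-chaperones of BiP, were lower by -1.10 ± 0.09 and -0.70 ± 0.05 in WT and by -1.19 ± 0.09 and -0.31 ± 0.05 in KO.

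Sdf2l1 and Hyou1 are also partners of BiP, but rest on few counts. Sdf2l1 had 5.59, 1.554, 2.768 and 2.614 CPM in WT at day 5 and 1.167, 0.3689, 0.2604 and 0.7415 CPM at day 6. Its groups did not overlap, and its log2 fold change was -2.20 ± 0.46 in WT (adjusted p = 0.000179) and -0.96 ± 0.45 in KO, where it missed the threshold (adjusted p = 0.0868). Hyou1 had 1.565, 3.553, 2.477 and 2.889 CPM in WT at day 5 and 0.7781, 1.107, 1.042 and 1.02 CPM at day 6. It was lower by -1.41 ± 0.36 in WT (adjusted p = 0.00141) and -1.09 ± 0.35 in KO (adjusted p = 0.0121), the KO groups overlapping. Dnajb9, a co-chaperone that acts on IRE1 and in degradation, was the lumenal cofactor that did not fall, with a log2 fold change of 0.21 ± 0.09 in both genotypes (adjusted p = 0.0598 in WT and 0.0616 in KO).

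Of the lectin chaperones, which hold glycoproteins until their sugars are trimmed, Calr (calreticulin) had 508.9, 502.7, 522.6 and 509.5 CPM in WT at day 5 and 197.2, 186.5, 201.4 and 185.6 CPM at day 6. It was lower by -1.41 ± 0.06 in WT and -1.39 ± 0.06 in KO. Uggt1, the enzyme that marks misfolded glycoproteins for another round, was lower in both (-0.69 ± 0.16 in WT and -0.43 ± 0.16 in KO). Canx was lower in WT (-0.33 ± 0.06), with -0.06 ± 0.06 in KO.

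Of 9 disulphide isomerases and related enzymes, 2 were lower in WT and 6 in KO, against 22.6% and 21.5% of all genes, none was higher, and 8 of 9 lay below 0 in each genotype. Pdia6, on chromosome 12 (17266545 to 17284770), had 1362, 1443, 1424 and 1535 CPM in WT at day 5 and 490.5, 517.0, 497.7 and 523.7 CPM at day 6. In KO it had 1144, 1308, 1168 and 1319 CPM at day 5 and 406.7, 476.1, 441.2 and 504.8 CPM at day 6. All day 6 values lay below all day 5 values, and within each group libraries 2 and 4 lay above libraries 1 and 3. The log2 fold change was -1.51 ± 0.06 in WT (adjusted p = 1.57e-21) and -1.43 ± 0.06 in KO (adjusted p = 7.67e-21). Pdia3, the isomerase that works with calnexin and calreticulin, was lower by -0.77 ± 0.09 in WT and -0.90 ± 0.09 in KO. P4hb, Erp29, Erp44 and Ppib were called lower in KO, by -0.22 to -0.70 on the log2 scale, and not in WT, and for none of them was the difference between genotypes called.

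Among the sensors, Xbp1 had 62.61, 63.29, 59.88 and 55.45 CPM in WT at day 5 and 48.63, 48.69, 45.7 and 48.57 CPM at day 6. It was lower in WT without overlap (-0.33 ± 0.09, adjusted p = 0.00312) and had -0.20 ± 0.09 in KO (adjusted p = 0.0708). Eif2ak3 was lower in WT (-0.40 ± 0.11) and KO (-0.29 ± 0.12).

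The disposal genes held the members that rose. Herpud1, a stress-induced membrane protein of the degradation complex, had 16.32, 14.66, 17.05 and 15.55 CPM in WT at day 5 and 22.05, 20.1, 26.69 and 19.56 CPM at day 6, with no overlap. Its log2 fold change was 0.47 ± 0.14 in WT (adjusted p = 0.00492) and 0.35 ± 0.13 in KO (adjusted p = 0.0332). Derl1, part of the channel through which proteins leave the ER, rose in WT (0.36 ± 0.09) and KO (0.41 ± 0.09), and Sel1l, adaptor of the ligase that marks such proteins, in WT (0.26 ± 0.07). In the translocon and the TRAP complex beside it (Ssr1 to Ssr4), Ssr1 and Ssr4 were lower in both genotypes, by -0.63 ± 0.06 and -0.18 ± 0.06 in WT and by -0.35 ± 0.06 and -0.40 ± 0.06 in KO. Sec61a1 and Sec61b, subunits of the channel, were lower in KO (-0.67 ± 0.11 and -0.73 ± 0.18).

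With the paired libraries summed, 17 of the 21 calls in WT and 16 of the 22 in KO remained. Xbp1 (adjusted p = 0.0586), Herpud1 (0.066), Sel1l (0.0513) and Ssr4 (0.127) no longer passed in WT. In KO the lost calls were those of Hyou1 (adjusted p = 0.0619), Uggt1 (0.154), Erp44 (0.0511), Ppib (0.138), Eif2ak3 (0.145) and Herpud1 (0.207).

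**Figure D1:**
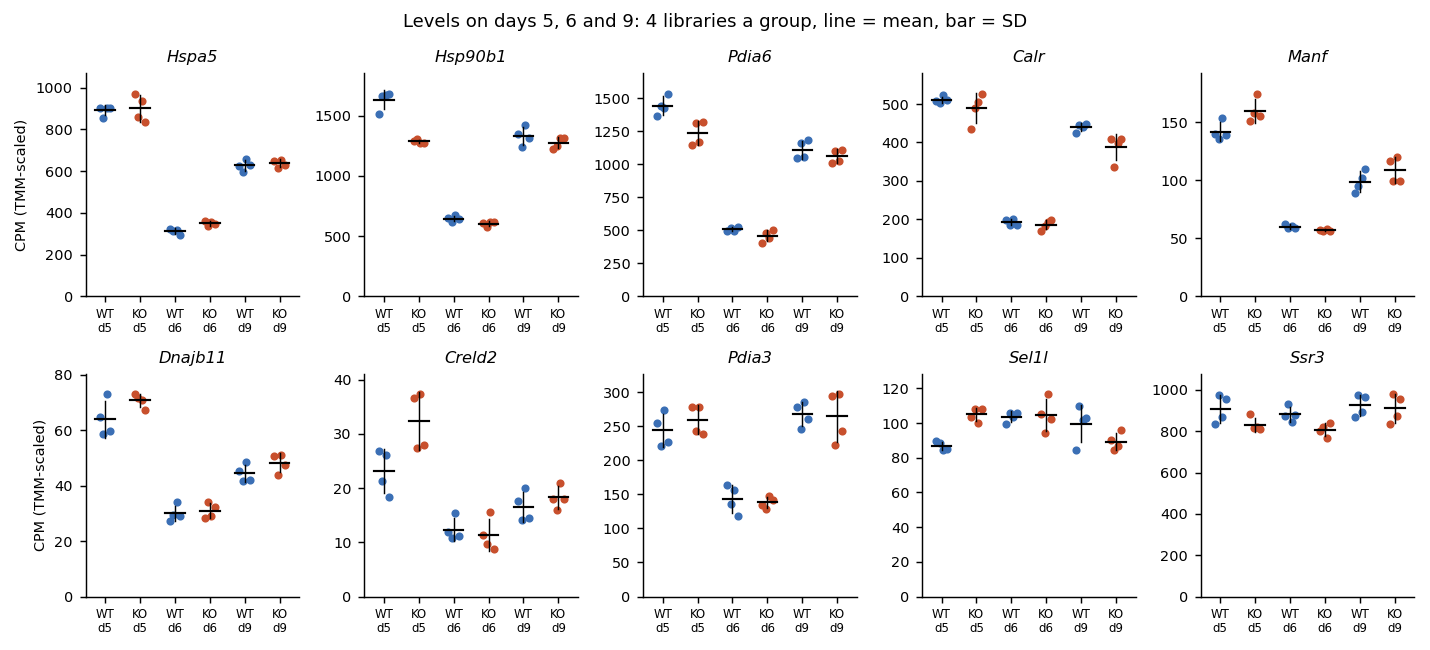
CPM (TMM-scaled, linear axis from 0) of 10 of the genes on days 5, 6 and 9 in WT (blue) and KO (red), with each of 4 libraries as a point, the group mean as a line and the SD as a bar. Hspa5, Hsp90b1, Pdia6, Calr and Manf lie at day 6 below every day 5 library of their genotype and rise again by day 9, whereas Ssr3 stays between 768 and 981 CPM throughout.

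Of the 9 tested genes with an ERSE in the promoter window, 7 were lower at day 6 in WT (median log2 fold change -0.90) and 6 in KO (median -1.09). Ero1lb and Syvn1 were the ERSE genes called in neither. Of the 23 with a promoter and no ERSE, 9 were lower and 2 higher in WT (median -0.12), and 10 lower and 1 higher in KO (median -0.22). Outside the 41 genes, 5 further genes with an ERSE were tested, of which 3 were lower and 1 higher (Pan2) in WT and 3 lower in KO. Of all genes tested, 22.6% were lower and 21.5% higher in WT, and 21.5% were lower and 21.5% higher in KO. The 41 genes were chosen by name for their known roles. No test was made of the difference between the counts of these sets of genes.

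**Figure D2:**
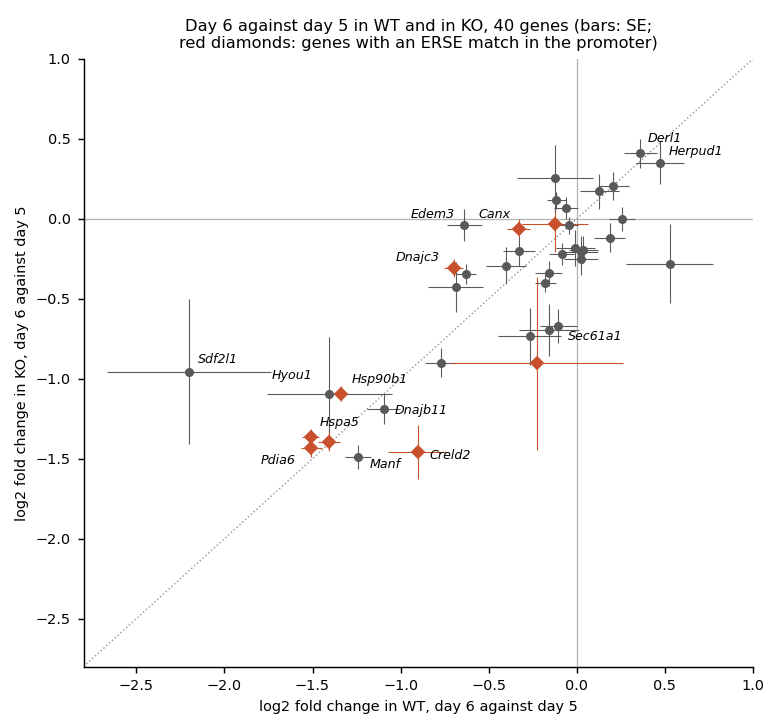
Log2 fold changes of day 6 against day 5 in WT (x axis) and KO (y axis) for the 40 genes tested, with SE bars and, as red diamonds, genes with an ERSE match in the promoter window. Hspa5, Pdia6, Hsp90b1, Calr and Manf lie below -1 on both axes, and Herpud1 and Derl1 above 0 on both.

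The 10 markers of dividing cells moved over the same interval, from 451 to 491.2 CPM in sum at day 5 to 195.2 to 208.8 CPM at day 6 in WT, and from 422.4 to 452.3 CPM to 151.2 to 158.2 CPM in KO. Of 9 tested, 8 were lower in WT and 9 in KO, and none of the 10 was at 0 in a whole group. Markers of radial glia and astroglia fell in sum from 21440 to 22110 CPM at day 5 to 16350 to 16540 CPM at day 6 in WT and from 21070 to 21370 CPM to 15760 to 16100 CPM in KO, with 7 of 12 higher and 4 lower in WT and 5 higher and 4 lower in KO. Ependymal markers rose in sum from 9.993 to 13.4 CPM to 29.18 to 39.39 CPM in WT and from 10.8 to 18.93 CPM to 28.3 to 31.54 CPM in KO, with 4 and 3 of 5 tested higher. Of 5 neuronal markers tested, 1 was higher and 3 lower in WT, and 2 were higher and 2 lower in KO. The part of these cell types in the fall of the ER genes was not tested.

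By day 9 fewer genes differed from day 5 and the main chaperones lay closer to their day 5 levels. In WT 13 of 40 genes were lower than at day 5 and 1 was higher (11.4% and 11.3% of all genes), with a median of -0.091 against 0.0169 for all genes. In KO 13 were lower and 3 higher (11% and 13.4% of all genes), with a median of -0.124 against -0.0186. The genotypes shared 8 of the 13 lower genes (61.5% of each) and none of those higher. This overlap, too, cannot be read as an independent repeat. Hspa5 reached 625.7, 596.1, 659.7 and 630.6 CPM in WT and 650.7, 616.2, 654.7 and 631.3 CPM in KO at day 9, between its levels of days 5 and 6 in every library. It remained below day 5 by -0.51 ± 0.05 in WT (adjusted p = 8.24e-10) and -0.50 ± 0.05 in KO (adjusted p = 8.93e-10). Manf (-0.52 ± 0.07 and -0.55 ± 0.07), Dnajb11 (-0.53 ± 0.09 and -0.54 ± 0.09), Creld2 (-0.47 ± 0.16 and -0.79 ± 0.16), Calr (-0.22 ± 0.06 and -0.33 ± 0.06) and Pdia6 (-0.38 ± 0.06 and -0.22 ± 0.06) were also lower in WT and KO. Xbp1, Dnajb9, Herpud1, Hyou1 and Sdf2l1 passed in neither, with adjusted p-values from 0.0647 to 0.964. In KO, Edem3 (0.35 ± 0.10), Ssr1 (0.21 ± 0.06) and Derl2 (0.17 ± 0.05) were higher, and none of these was called with summed libraries or after correction for GC content and length. Summed libraries left 6 lower in WT and 7 lower in KO, and none higher, and among the named genes the calls of Calr (adjusted p = 0.06) and Creld2 (0.258) in WT and of Pdia6 (0.104) in KO were lost. In KO, library sizes alone gave 1 higher and 16 lower, and GC and length correction 0 higher and 11 lower. Dividing-cell markers were lower in 6 of 9 in WT and in 0 of 9 in KO (edgeR, with 1 at an unadjusted p under 0.05 and 0 in DESeq2), and their part was not tested.

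Comparing KO with WT asks what followed the Cre virus on each day. At day 4, 4 of 39 genes were higher in KO and none lower, against 0.927% and 0.665% of all genes. The median log2 fold change was 0.06 over the 39 genes, 25 of them above 0, against -0.003 for all genes. At an unadjusted p under 0.05, 11 were higher and 2 lower, and DESeq2 called 5 higher and 0 lower. Tmbim6, on chromosome 15 (99392882 to 99410049), whose protein guards against cell death from ER stress, had 453.4, 478.8, 477.0 and 525.4 CPM in WT and 543.4, 635.5, 588.4 and 661.2 CPM in KO. All KO values lay above all WT values (0.33 ± 0.06, adjusted p = 0.00457). Pdia6 had 410.6, 460.5, 450.6 and 435.7 CPM in WT and 492.4, 556.3, 531.9 and 540.9 CPM in KO, again without overlap (0.27 ± 0.05, adjusted p = 0.00894).

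Hspa5 had 463.1, 435.2, 404.9 and 429.0 CPM in WT at day 4 and 549.6, 536.9, 489.4 and 490.1 CPM in KO. It was higher by 0.25 ± 0.06 (adjusted p = 0.0189). Calr had 264.2, 287.9, 313.1 and 301.6 CPM in WT and 324.9, 346.6, 350.2 and 360.4 CPM in KO (0.24 ± 0.06, adjusted p = 0.0384). Neither gene's groups overlapped, yet leaving out 1 library kept the call of Hspa5 in only 3 of 8 fits and that of Calr in 2 of 8. Without replicate 2 or replicate 4 of WT, or replicate 2 of KO, 2 of the 4 genes were called. Manf (0.27 ± 0.09, adjusted p = 0.166), Herpud1 (0.63 ± 0.21, adjusted p = 0.148), Sdf2l1 (0.44 ± 0.42), Dnajb9 (0.09 ± 0.09), Xbp1 (0.06 ± 0.11) and Creld2 (-0.0024 ± 0.18) did not pass.

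At day 5, 4 of 40 genes were higher and 5 lower in KO, against 6.22% and 8.76% of all genes, and the median was 0.01 against 0.016 for all genes. Hsp90b1 was lower, with 1293, 1304, 1273 and 1275 CPM in KO against the 4 WT values given above, which start at 1518 CPM (-0.34 ± 0.04, adjusted p = 1.73e-06). Among the 9 this was the call that stood with summed libraries (adjusted p = 0.008). Pdia6, with the day 5 values given above, was lower in KO by -0.22 ± 0.06 (adjusted p = 0.00671). Derl2 (-0.26 ± 0.05), Ssr1 (-0.28 ± 0.06) and Pdia4, another isomerase (-0.24 ± 0.07), were also lower.

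Of the higher genes at day 5, Erp29, a lumenal protein with an isomerase fold, had 29.74, 19.32, 31.76 and 25.87 CPM in WT and 34.3, 42.74, 44.42 and 39.2 CPM in KO (0.59 ± 0.16, adjusted p = 0.0117), and 26.4% of its exonic length is shared with other annotated genes. Creld2 had the WT values given above and 36.53, 27.37, 37.4 and 28.04 CPM in KO (0.47 ± 0.16, adjusted p = 0.0396). Its groups did not overlap, and correction for GC content and length ended its call (adjusted p = 0.162). Sel1l (0.28 ± 0.07) and Erp44, which retrieves ER proteins from the Golgi (0.21 ± 0.07, adjusted p = 0.0438, lost in all 8 fits that leave out a library), were higher too. Without replicate 2 of WT, 5 genes in all were called. Hspa5 (0.01 ± 0.05), Manf (0.17 ± 0.07), Xbp1 (-0.18 ± 0.09), Dnajb9 (0.15 ± 0.09), Sdf2l1 (-0.50 ± 0.40), Herpud1 (0.15 ± 0.14) and Hyou1 (-0.08 ± 0.32) did not pass. With library sizes alone as the scaling, 6 were higher and 5 lower.

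At day 6, 4 of 40 genes were higher and 1 lower in KO, against 6.69% and 6.45% of all genes, with a median of -0.04 against 0.001. Dnajc3 had 99.34, 100.3, 101.3 and 94.82 CPM in WT and 116.3, 116.9, 118.5 and 119.0 CPM in KO. The groups were well apart (0.25 ± 0.05, adjusted p = 0.00176). Hspa5, with the day 6 values given above, was higher in KO by 0.16 ± 0.05 (adjusted p = 0.0279), and Canx by 0.19 ± 0.06 (adjusted p = 0.0473). Edem3, which trims mannose from doomed glycoproteins, had 64.19, 55.33, 52.34 and 56.26 CPM in WT and 66.44, 66.36, 69.1 and 85.82 CPM in KO (0.34 ± 0.10, adjusted p = 0.0228). Ppib, the ER prolyl isomerase cyclophilin B, had 106.7, 126.0, 101.7 and 123.8 CPM in WT and 91.39, 97.69, 88.67 and 90.56 CPM in KO (-0.32 ± 0.10, adjusted p = 0.0263), with 25.0% of its exonic length shared with other genes.

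The count at day 6 depended on the fit. With the replicate number as a block, 4 were higher and 7 lower. After GC and length correction 1 was higher and 2 lower, of which Dnajc3 alone had been called before, and with summed libraries none was called. Without replicate 2 or 4 of WT, 1 gene was called, and without replicate 1 or 3 of KO, 2 genes. Dividing-cell markers were lower in KO in 5 of 9 at this day, and their part in these differences was not tested. Pdia6 (-0.15 ± 0.06), Dnajb9 (0.15 ± 0.09), Sdf2l1 (0.75 ± 0.53), Manf (-0.08 ± 0.08), Xbp1 (-0.06 ± 0.09), Hyou1 (0.23 ± 0.40), Creld2 (-0.08 ± 0.18) and Herpud1 (0.03 ± 0.13) did not pass.

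At day 9, Calr was lower in KO and no other gene passed, against 6.35% of all genes higher and 5.43% lower. Calr had 424.8, 446.4, 441.3 and 447.9 CPM in WT and 410.0, 336.4, 398.5 and 408.3 CPM in KO. The groups did not overlap, with 1 KO library far below the rest (-0.18 ± 0.06, adjusted p = 0.0456). That call stood in 3 of 8 fits that leave out a library and not with summed libraries. At an unadjusted p under 0.05, 4 genes were higher and 5 lower, DESeq2 called 1 in each direction, and with the replicate block 2 were called. Without replicate 2 or 3 of KO or replicate 2 of WT, 0 were called, and without replicate 4 of KO or replicate 1 of WT, 2. The remaining always-reported genes ran from -0.63 ± 0.33 (Hyou1) to 0.49 ± 0.42 (Sdf2l1), with adjusted p-values from 0.0988 to 0.807.

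Whether the step from day 5 to day 6 differed between genotypes was tested as an interaction. It was called higher in KO for 6 of 40 genes and lower for 1, against 7.48% and 5.11% of all genes. Edem3 (0.60 ± 0.14, adjusted p = 0.00397) and Dnajc3 (0.39 ± 0.08, adjusted p = 0.000645) fell less in KO, and these were the calls left after GC and length correction. Hsp90b1 (0.25 ± 0.06), Ssr1 (0.29 ± 0.09), Canx (0.27 ± 0.09), Derl2 (0.23 ± 0.08) and Sec61a1 (-0.57 ± 0.15) were the others. Summed libraries left none, and the replicate block gave 7 higher and 9 lower. Without replicate 2 of KO or 3 of WT at day 5, or replicate 1 of KO at day 6, 4 were called. Library sizes alone gave 4 higher and 2 lower. For the step from day 6 to day 9 no gene passed in edgeR or DESeq2, with 4 at an unadjusted p under 0.05, against 3.86% and 3.95% of all genes, and without replicate 1 of KO or replicate 2 or 4 of WT at day 9, 1 gene passed.

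At day 7 the comparison of KO with WT under DMSO asks how cells given the Cre virus differed in the absence of the drug. Of the comparisons of KO with WT it had the most calls, both in these genes and among all genes. Of 39 genes, 13 were higher and 13 lower, against 16.9% and 19.1% of all genes, so that 26 of 39 passed while the median of -0.04 stayed near that of all genes (-0.015). Of the 26, 17 were called in all 8 fits that leave out a library. For several genes the KO libraries under DMSO stood apart from the other 3 groups of the day. Canx and Tmbim6, picked after their values were seen, lay there near their levels of the separately scaled day 4 table. For Pdia6 and Ssr1 it was the WT libraries under DMSO that lay nearer to day 4. Whether the 4 KO libraries under DMSO were prepared or sequenced apart from the others is not given in the sources used here. A batch of that kind cannot be told apart from the genotype in this comparison. Nor can it be told apart from the drug in the comparison of ORY with DMSO in KO. Library sizes alone moved the median of all genes by -0.104 and gave 8 higher and 15 lower. The changes below are relative to TMM scaling, and those of Hsp90b1, Creld2, Calr, Erp29 and Ssr4 did not pass under library sizes alone.

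Canx, on chromosome 11 (50293961 to 50325673), had 2938, 2924, 2745 and 2736 CPM in WT and 6613, 6357, 6235 and 6000 CPM in KO. Every KO library held over 2 times the level of any WT library (log2 fold change 1.15 ± 0.04, adjusted p = 1.04e-16). Tmbim6 went the other way, with 896.9, 876.9, 880.5 and 892.8 CPM in WT and 404.7, 396.4, 404.8 and 404.9 CPM in KO. The spread within each group was small beside this gap (-1.14 ± 0.04, adjusted p = 7.09e-17).

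The TRAP complex, which assists some proteins through the Sec61 channel, split between its subunits. Ssr2 had 181.4, 179.8, 191.1 and 217.4 CPM in WT and 93.6, 98.69, 104.6 and 101.4 CPM in KO (-0.95 ± 0.08, adjusted p = 2.56e-10), and 12.8% of its exonic length is shared with another annotated gene. Ssr1 had 742.1, 689.5, 638.7 and 605.2 CPM in WT and 1244, 1148, 1132 and 1022 CPM in KO (0.76 ± 0.08, adjusted p = 1.02e-08). Neither overlapped between genotypes, so subunits of 1 complex moved in opposite directions, and this held under both other scalings. Ssr4 was higher (0.27 ± 0.10) and Ssr3 was not called.

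The lumenal chaperones were higher or not called: 6 of 8 were higher and none lower. Dnajb11 had 26.38, 30.45, 29.5 and 23.57 CPM in WT and 46.85, 46.95, 46.93 and 44.42 CPM in KO (0.74 ± 0.10, adjusted p = 1.32e-06). Manf had 56.15, 61.09, 67.45 and 63.96 CPM in WT and 91.64, 89.49, 85.66 and 85.8 CPM in KO (0.51 ± 0.07, adjusted p = 4.02e-06). Both lay higher in every KO library. Dnajb9 (0.42 ± 0.10), Creld2 (0.42 ± 0.14), Dnajc3 (0.39 ± 0.07) and Hsp90b1 (0.25 ± 0.08) were higher as well. Hspa5 was not: it had 468.6, 475.0, 406.8 and 379.3 CPM in WT and 438.8, 466.5, 385.9 and 434.7 CPM in KO, in overlapping ranges (-0.0047 ± 0.08, adjusted p = 0.971). Xbp1 had 30.23, 32.95, 38.8 and 34.2 CPM in WT and 33.89, 30.77, 35.24 and 33.03 CPM in KO (-0.04 ± 0.09), and Sdf2l1 missed the threshold (0.98 ± 0.47, adjusted p = 0.103).

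The disulphide isomerases went mostly down, with 6 of 9 lower and 1 higher. Pdia6 had 408.3, 440.1, 438.8 and 435.8 CPM in WT and 313.4, 303.1, 308.8 and 294.8 CPM in KO (-0.50 ± 0.05, adjusted p = 2.29e-08). Pdia4 had 473.7, 451.9, 427.3 and 425.7 CPM in WT and 317.1, 301.7, 272.0 and 272.8 CPM in KO (-0.61 ± 0.06, adjusted p = 2.38e-08). Both were lower in every KO library. Ero1lb, the oxidase that recharges the isomerases (-0.54 ± 0.21), Ppib (-0.37 ± 0.07), P4hb (-0.24 ± 0.07) and Pdia3 (-0.17 ± 0.06) were lower, the last pair losing their calls after GC and length correction (adjusted p = 0.321 and 0.253), and Erp29 was higher (0.40 ± 0.15).

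In disposal, 4 of 8 were lower and 1 higher. Herpud1 had 36.71, 34.78, 35.78 and 40.19 CPM in WT and 24.84, 22.19, 25.36 and 25.43 CPM in KO (-0.59 ± 0.11, adjusted p = 0.000141), and Edem2 had 11.26, 12.81, 16.68 and 12.56 CPM in WT and 7.845, 8.336, 8.809 and 7.403 CPM in KO (-0.72 ± 0.16, adjusted p = 0.00104). Neither pair of groups overlapped. Derl2 (-0.39 ± 0.06) and Sel1l (-0.18 ± 0.07) were lower, and Edem3 was higher (0.48 ± 0.12). Ern1 was the sensor called, higher by 0.70 ± 0.16 (adjusted p = 0.00127). Calr was higher (0.19 ± 0.07) and Sec61a1 lower (-0.36 ± 0.12, adjusted p = 0.0237), the call of Sec61a1 ending after GC and length correction (adjusted p = 0.0582).

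Markers of radial glia and astroglia moved in the same comparison: 8 of 12 were higher in KO and 2 lower, and their summed level was 18440 to 19240 CPM in KO against 13720 to 14530 CPM in WT, with none of the 12 at 0. Oligodendrocyte markers stood at 398.4 to 426.6 CPM in sum in KO against 235.8 to 248.4 CPM in WT. Under ORY the glial sums were 15120 to 15420 CPM in KO and 14930 to 15280 CPM in WT. Their part in the differences of the ER genes was not tested.

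**Figure D3:**
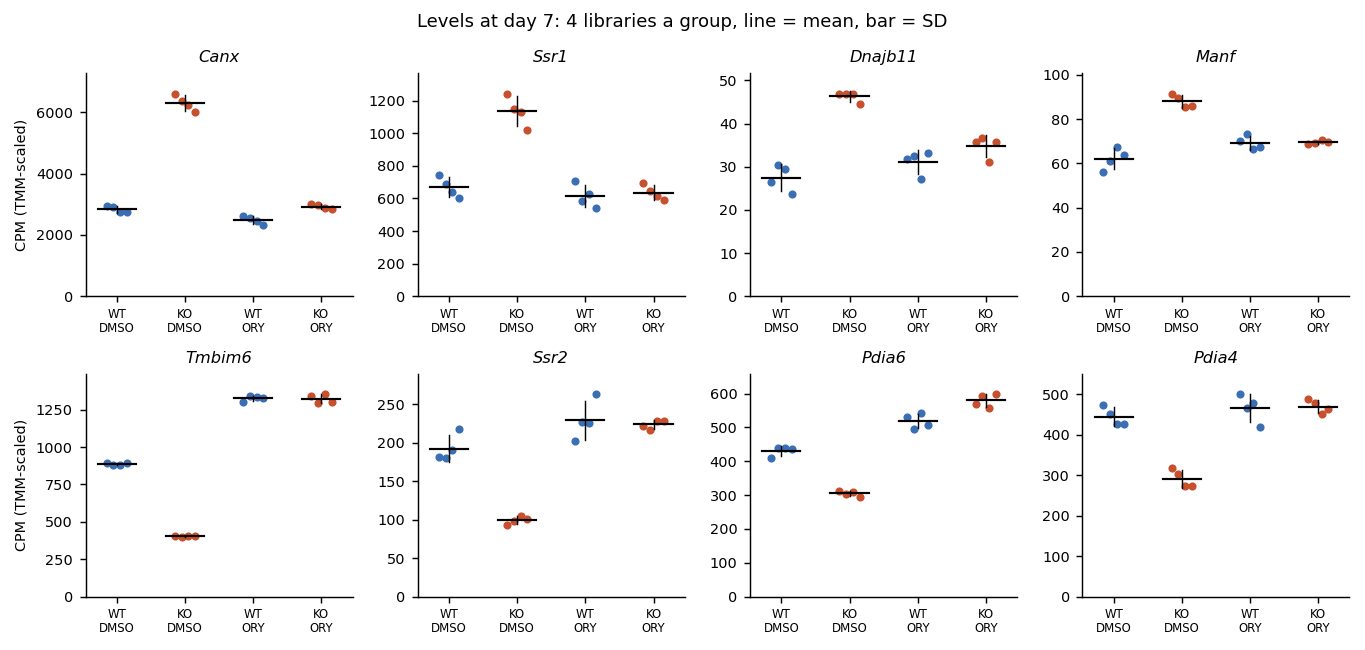
CPM (TMM-scaled, linear axis from 0) of 8 of the genes at day 7 under DMSO or ORY in WT (blue) and KO (red), with each of 4 libraries as a point, the group mean as a line and the SD as a bar. KO under DMSO stands apart for all 8 genes, Canx at 6000 to 6613 CPM and Tmbim6 at 396.4 to 404.9 CPM. All 8 are genes for which the effect of ORY was called different between the genotypes. KO and WT under ORY lie closer to each other, although Canx and Pdia6 do not overlap between them.

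ORY was added to ask what LSD1 inhibition does in each genotype. In KO, 14 of 39 genes were higher with ORY than with DMSO and 7 lower, against 20.3% and 18.3% of all genes. With GC and length correction the split was 11 higher and 10 lower. This comparison shares the KO libraries under DMSO with the comparison above, so a gene that stood low in those libraries counts in both. Tmbim6 had 1345, 1294, 1357 and 1304 CPM in KO with ORY (1.72 ± 0.04, adjusted p = 9.64e-21), above every library given DMSO. Canx had 3008, 2975, 2863 and 2834 CPM in KO with ORY (-1.11 ± 0.04, adjusted p = 2.14e-16), close to WT under DMSO. Ssr2 had 222.3, 216.2, 228.5 and 228.4 CPM (1.17 ± 0.08) and Ssr1 695.8, 644.2, 615.9 and 587.6 CPM (-0.84 ± 0.08). Pdia6 had 569.9, 594.0, 558.8 and 599.5 CPM in KO with ORY (0.93 ± 0.05, adjusted p = 1.29e-13), higher than in every library under DMSO.

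Further genes higher with ORY in KO were Sec61a1 (0.84 ± 0.12), Pdia4 (0.69 ± 0.06), Calr (0.47 ± 0.07), Ppib (0.43 ± 0.07), Atf6 (0.43 ± 0.10), Derl2 (0.38 ± 0.06) and Hspa5, which had 567.4, 579.2, 478.0 and 513.8 CPM (0.31 ± 0.08, adjusted p = 0.00201). P4hb, Txndc5, Uggt1 and Sel1l were higher by 0.21 to 0.37 on the log2 scale. Lower were Creld2 (-0.45 ± 0.14), Dnajb9 (-0.42 ± 0.10), Dnajb11 (-0.41 ± 0.10), Manf (-0.34 ± 0.07) and Erp44 (-0.24 ± 0.08). Xbp1 (0.06 ± 0.09), Herpud1 (0.06 ± 0.11) and Sdf2l1 (0.05 ± 0.44) did not pass. Of the 12 glial markers, 3 were higher and 7 lower here, and their part was not tested.

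In WT, 7 of 39 genes were higher with ORY and 5 lower, against 8.16% and 6.91% of all genes. Tmbim6 had 1305, 1340, 1332 and 1332 CPM (0.58 ± 0.04, adjusted p = 2.69e-10), all above the WT libraries under DMSO. Calr had 136.2, 154.0, 156.2 and 162.9 CPM under DMSO and 229.3, 235.7, 209.0 and 248.4 CPM with ORY (0.60 ± 0.07, adjusted p = 1.69e-06), again without overlap. Sec61a1 (0.54 ± 0.12), Uggt1 (0.38 ± 0.10), Atf6 (0.33 ± 0.10), Pdia6 (0.27 ± 0.05) and Ssr2 (0.26 ± 0.07) were the other higher genes. Lower were Ero1lb (-0.66 ± 0.21), Edem2 (-0.53 ± 0.16), Herpud1 (-0.46 ± 0.11, with 24.62, 23.37, 30.52 and 27.74 CPM), Pdia3 (-0.42 ± 0.06) and Canx (-0.19 ± 0.04, with 2602, 2546, 2464 and 2312 CPM). Xbp1 had 40.43, 40.15, 41.98 and 40.67 CPM with ORY, above every DMSO library of WT, but did not pass (0.26 ± 0.09, adjusted p = 0.0561), nor did Hspa5 (0.18 ± 0.08, adjusted p = 0.122). Markers of dividing cells were higher with ORY in WT in 4 of 7, at 163.8 to 194.3 CPM in sum against 140.5 to 156.3 CPM.

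The ORY comparisons in WT and in KO share no library. All 7 genes higher in WT were higher in KO (7 of 7 in WT and 7 of the 14 in KO), namely Calr, Uggt1, Pdia6, Atf6, Sec61a1, Ssr2 and Tmbim6. Of those lower, Canx alone was shared (20.0% and 14.3%).

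**Figure D4:**
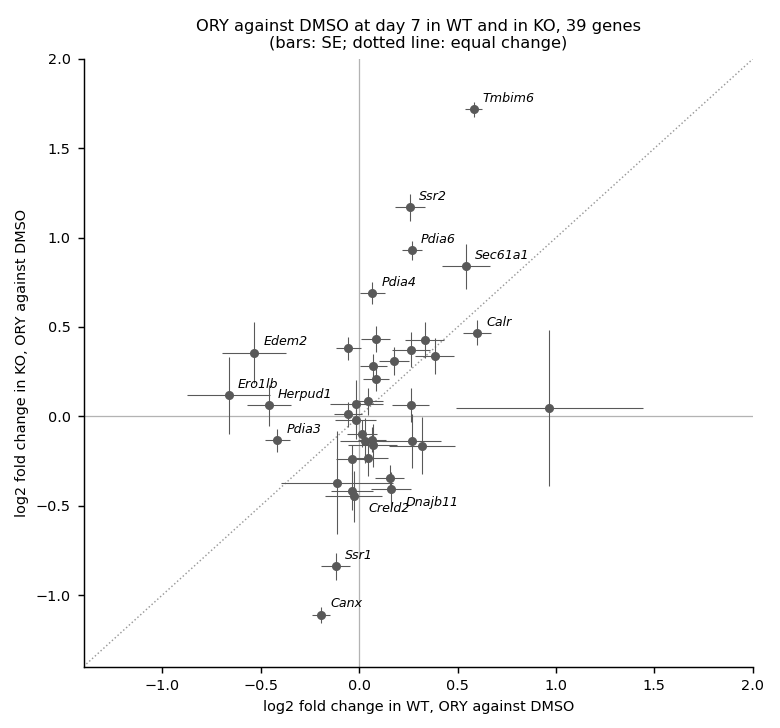
Log2 fold changes of ORY against DMSO at day 7 in WT (x axis) and KO (y axis) for the 39 genes tested, with SE bars and a dotted line of equal change. Tmbim6 (0.58 in WT, 1.72 in KO) and Ssr2 lie above the line, Canx and Ssr1 below it, and Calr near it.

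With ORY on both sides, Canx was the 1 gene of 39 that differed between KO and WT (0.24 ± 0.04, adjusted p = 0.00604, kept in all 8 fits that leave out a library), and none was lower, against 0.561% and 0.594% of all genes. At an unadjusted p under 0.05, 3 were higher and 1 lower, and DESeq2 called 2 higher and 0 lower. Pdia6, which had 530.1, 496.1, 541.6 and 508.0 CPM in WT with ORY, did not pass (0.16 ± 0.05, adjusted p = 0.118), although all KO values lay above these, and Tmbim6 had a log2 fold change of -0.0026 ± 0.04. The replicate block gave 5 calls, though replicate numbers did not pair these libraries. Hspa5 (0.13 ± 0.08), Xbp1 (-0.23 ± 0.09), Herpud1 (-0.07 ± 0.11), Dnajb9 (0.04 ± 0.11), Sdf2l1 (0.06 ± 0.45), Manf (0.01 ± 0.07) and Creld2 (-0.0034 ± 0.15) did not pass.

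The difference between the ORY effect in KO and that in WT was tested as an interaction and was higher in KO for 9 of 39 genes and lower for 4, against 10% and 7.86% of all genes. Higher were Tmbim6 (1.136 ± 0.06, adjusted p = 6.47e-13), Ssr2 (0.91 ± 0.11), Edem2 (0.89 ± 0.24), Pdia6 (0.66 ± 0.07), Pdia4 (0.62 ± 0.09), Herpud1 (0.52 ± 0.16), Derl2 (0.43 ± 0.09), Ppib (0.35 ± 0.10) and Pdia3 (0.28 ± 0.09). Lower were Canx (-0.92 ± 0.06, adjusted p = 4.63e-11), Ssr1 (-0.72 ± 0.11), Dnajb11 (-0.57 ± 0.14) and Manf (-0.50 ± 0.10). GC and length correction gave 7 higher and 9 lower, with Ppib and Pdia3 no longer called. The same 4 groups enter this test and the comparisons above, so it is not a further measurement.

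**Figure D5:**
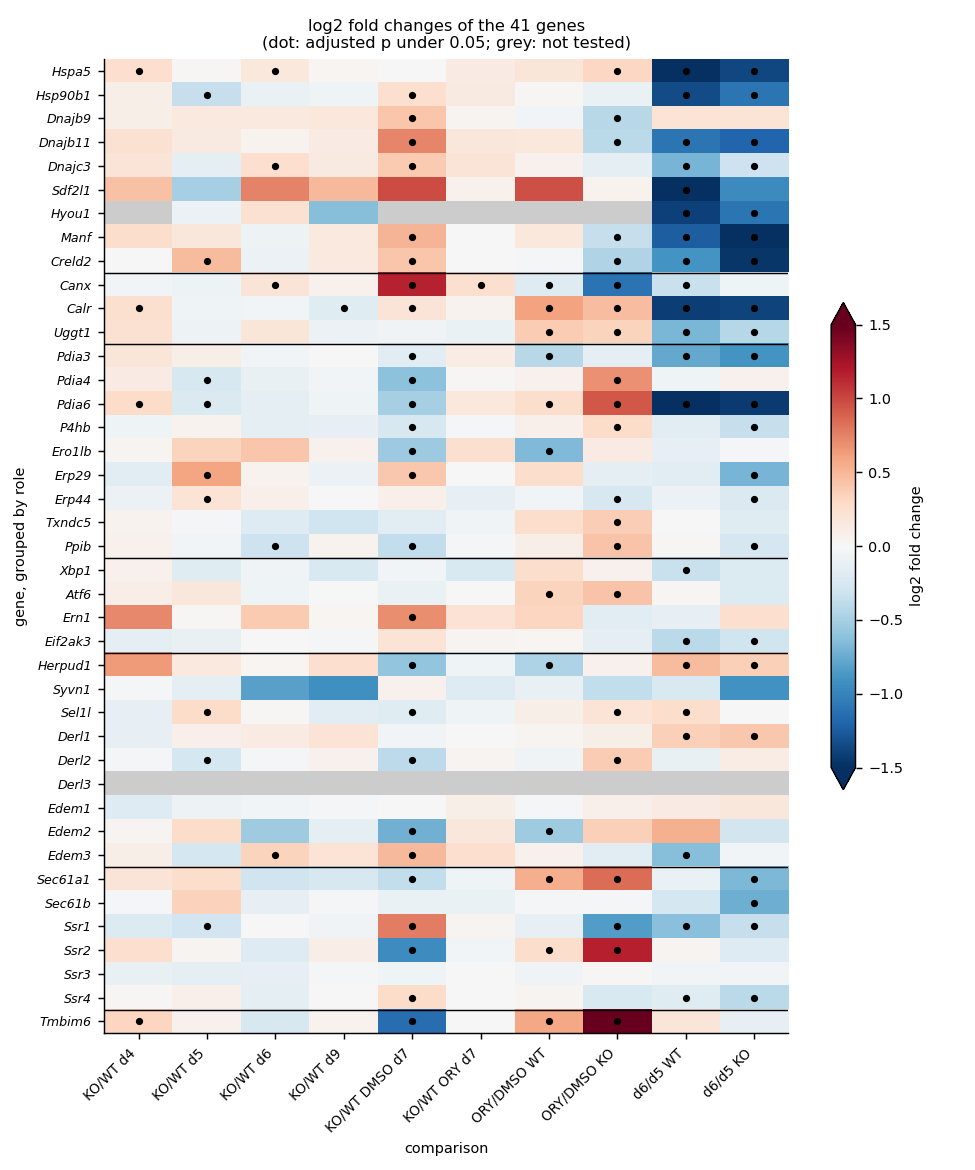
Log2 fold changes (colour, red higher and blue lower, limited to 1.5 in either direction) of the 41 genes by role in 10 of the comparisons, with a dot where the adjusted p was under 0.05 and grey where a gene was not tested. The columns of day 6 against day 5 hold 21 dots in WT and 22 in KO, those of KO against WT under DMSO 26 and of ORY against DMSO in KO 21, and the column of KO against WT with ORY holds 1 dot, for Canx.

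Over the 15 comparisons 37 of the 41 genes were called at least once. Syvn1, the ubiquitin ligase of the degradation complex, Edem1 and Ssr3 were tested and called in none, and Derl3 was not tested.

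Neighbouring genes of the secretory route were read from 8 lists holding 165 genes. At day 6 against day 5 in WT, 22.6% of all genes were lower and 21.5% higher, and the shares of the degradation and transducer lists lie near or below these. Over this step 6 of 12 subunits of the oligosaccharyltransferase, which attaches sugar chains, were lower (Rpn1 by -0.59 ± 0.06) and 1 was higher, 9 of 17 genes of targeting, translocon and signal peptidase were lower and 1 higher, and of 30 other folding genes 12 were lower (Fkbp14 by -0.89 ± 0.07) and 9 higher (Fkbp7 by 1.19 ± 0.12). Of the COPII coat and cargo receptors, which carry proteins out of the ER, 7 of 21 were lower (Sec23b by -0.81 ± 0.09) and 3 higher. Of the PERK and ATF4 branch 7 of 18 were higher and 4 lower, with 9 above 0 and 9 below: Ddit3, which encodes CHOP, rose by 1.40 ± 0.15 and Gadd45a by 1.24 ± 0.14, while Eif2s1 fell by 0.63. Of 22 cytosolic heat shock genes, 11 were lower (Hsph1 by -1.08 ± 0.06) and 3 higher. Among 21 other degradation genes 3 were lower and 3 higher, and of 17 other stress transducers 2 were lower and 4 higher (Tmbim1 by 0.92 ± 0.13).

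At day 4 only Txndc12, a thioredoxin-like folding enzyme (0.24 ± 0.05), passed in these lists. At day 7 under DMSO, 16.9% of all genes were higher in KO and 19.1% lower, and the shares of the folding and COPII lists were close to these. Those of the PERK and ATF4 branch (11.8% and 17.6%) and of the other stress transducers (5.88% and 17.6%) lay below them. Here 5 of 30 other folding genes were higher in KO and 6 lower (Calu by -0.57 ± 0.06 and Sil1, the other nucleotide exchange factor of BiP, by -0.84 ± 0.10). Of the oligosaccharyltransferase, 4 of 12 were higher and 3 lower (Rpn2 by -0.61 ± 0.06). Of targeting and translocon genes, 7 of 17 were higher and 2 lower, and of COPII and receptors 4 of 21 were higher (Kdelr2, a receptor that returns ER proteins, by 0.74 ± 0.07) and 5 lower. Of 17 genes of the PERK and ATF4 branch, 2 were higher (Gadd45a and Eif2s1) and 3 lower, Ddit3 among them (-0.80 ± 0.11). Of 17 other stress transducers, 1 was higher (Nfya) and 3 lower, among them Traf2, which IRE1 recruits (-1.52 ± 0.15). Other degradation genes had 5 of 21 higher and 5 lower, and cytosolic heat shock genes 6 of 21 higher and 4 lower. With ORY in KO, Calu (0.88 ± 0.06), Sil1 (0.88 ± 0.10), Rpn2 (0.91 ± 0.06) and Traf2 (1.80 ± 0.15) were higher and Kdelr2 was lower (-0.93 ± 0.07). Of all genes, 20.3% were higher and 18.3% lower in this comparison. The named genes are those already given for KO against WT under DMSO. Both comparisons use the KO libraries under DMSO, so their opposite signs are not a separate result. Between KO and WT with ORY, Sar1a (0.22 ± 0.05) and Hspb8 (-0.33 ± 0.07) were the 2 list genes called.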

How the data were processed

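SMART-seq2, which copies whole transcripts and does not keep strand, was used for all 48 libraries. The authors demultiplexed reads with bcl2fastq 2.17.1.14, trimmed them with Trimmomatic 0.32, mapped them to GRCm38 with STAR 2.5.2a, and deposited counts of uniquely mapped reads per gene, with no normalization, in 3 tables (day 4; days 5, 6 and 9; day 7). Reads from near-identical copies were thereby lost.

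Each table was fitted alone in edgeR 4.0.16 (R 4.3.3) with quasi-likelihood F tests, TMM scaling, a filter on low counts (minimum count 10, minimum total 15) and Benjamini-Hochberg adjustment over all 11430, 12549 or 11952 genes tested. A gene was called at an adjusted p under 0.05. SE is the fold change divided by the square root of F. CPM is TMM-scaled and comparable within a table. Samples were grouped by GEO's labels and n is 4 throughout. Libraries of day 4 held 5.81 M to 8.40 M counts, those of days 5, 6 and 9 held 3.14 M to 12.4 M and those of day 7 held 4.27 M to 20.6 M. P-values measure only the spread between these libraries.

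Alternatives were RLE size factors, library size only, no filter, DESeq2 1.42.0, the replicate number as a block, correction for GC content and length (alone and with the block), leaving out each library, and summing libraries 1 with 3 and 2 with 4 on days 5, 6 and 9. Replicate numbers were taken to pair libraries where deviations from the group mean correlated above 0.1 in all 4 pairs, over genes with a mean log2 CPM of at least 4: this held for KO against WT at day 6 (r 0.171 to 0.243) and day 9 (0.156 to 0.344), WT day 6 and day 9 against day 5, KO day 6 against day 5, and ORY in KO (0.129 to 0.274). Whether it held over all tested genes is not given here. Scripts were tested on simulated data.

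Hspa5, Xbp1, Dnajb9, Sdf2l1, Herpud1, Creld2, Manf, Hyou1 and Pdia6 were named throughout where tested, others where called, cut to those with the smallest p where over 12 passed. Up to 3 called genes per pathway list were named. Tmbim6, Ssr3 and Canx values outside these rules were chosen after they were seen. The members and lists were chosen with earlier results of these data known, and no test was made over a list. Motifs were searched in RefSeq promoters.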

Additional observations from a re-analysis of the deposited data

Results flagged for a closer look

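In 11 of 144 groups of 4 libraries checked, 1 library's CPM stood apart from the other 3 (Dixon's criterion, which chance meets in about 1 of 20 groups). These were Hspa5 (855.1 CPM) and Hsp90b1 (1518 CPM), both low in a WT library of day 5. On day 6 Xbp1 was low in a WT library (45.7 CPM) and Edem3 high in a KO library (85.82 CPM), and Edem3 was also high in a KO library of day 5 (87.57 CPM). At day 9 Hyou1 was high in a WT library (3.604 CPM) and Calr low in a KO library (336.4 CPM). At day 7 Tmbim6 (396.4 CPM) and Dnajb11 (44.42 CPM) were low in a KO library under DMSO, Pdia6 was low in a WT library under DMSO (408.3 CPM) and Calr high in a KO library with ORY (249.4 CPM). Without replicate 2 of KO, the library in which Calr was low, no gene differed between KO and WT at day 9.

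The effect of ORY differed between KO and WT in 13 genes, on the log2 scale by 1.136 for Tmbim6, 0.91 for Ssr2, 0.89 for Edem2, 0.66 for Pdia6, 0.62 for Pdia4, 0.52 for Herpud1, 0.43 for Derl2, 0.35 for Ppib, 0.28 for Pdia3, -0.50 for Manf, -0.57 for Dnajb11, -0.72 for Ssr1 and -0.92 for Canx. The step from day 5 to day 6 differed between KO and WT in 7 genes, by 0.60 for Edem3, 0.39 for Dnajc3, 0.29 for Ssr1, 0.27 for Canx, 0.25 for Hsp90b1, 0.23 for Derl2 and -0.57 for Sec61a1. Both sets are edgeR interaction tests with an adjusted p under 0.05.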

How the results depend on the processing

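Of the 172 calls of single genes, none reversed under any alternative. Calls lost numbered 0 with the replicate block, 3 with RLE, 4 with DESeq2, 12 with library size only, 17 with GC and length correction and the block, 21 with no filter and 27 with GC and length correction. Summed libraries lost 48 of 95, and leaving out 1 library lost 211 of 1536. For KO against WT at day 4, leaving out a library gave 2 to 4 calls against 4. At day 5 (9 calls) the replicate block gave 14 and summed libraries 1, with 5 to 10 when a library was left out. At day 6 (5 calls) the block gave 11, GC and length correction 3, that correction with the block 9, summed libraries 0, and leaving out a library 1 to 5. At day 9 (1 call) the block gave 2, correction with the block 3, DESeq2 2, summed libraries 0, and leaving out a library 0 to 2. With ORY (1 call) the block gave 5, correction 2, both 5 and DESeq2 2. Day 9 against day 5 fell from 14 to 6 in WT and from 16 to 7 in KO with summed libraries, which leave 2 values a group. The genotype difference in the step from day 5 to 6 (7 calls) became 16 with the block, 2 with correction, 0 with summed libraries and 4 to 8 with a library left out. That from day 6 to 9 (0 calls) became 3 with no filter, 3 with the block, 3 with correction and block, and 0 to 1 with a library left out. The cause of these shifts was not tested. At day 5 and with ORY, replicate numbers did not pair the libraries (r 0.045 to 0.165 and 0.018 to 0.424), and 1 and 2 of 4 KO libraries correlated best with their own number. The block changed no other count by over 1.5 times. Genes such as Sdf2l1 and Hyou1, with few counts per library, carry SEs of 0.31 to 0.53, so that changes of that size were not detectable at this depth.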

Other observations

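Canx, Tmbim6 and Ssr1 differed between the separately scaled tables by as much as within them. Canx stood at 6858 to 7217 CPM in WT and 6703 to 6814 CPM in KO at day 4, and at 2029 to 3156 CPM in all libraries of days 5, 6 and 9. At day 7 it stood at 6000 to 6613 CPM in KO under DMSO and at 2312 to 3008 CPM in the other 3 groups. Tmbim6 stood at 453.4 to 525.4 CPM in WT and 543.4 to 661.2 CPM in KO at day 4, at 947.7 to 1490 CPM on days 5, 6 and 9, at 396.4 to 404.9 CPM in KO under DMSO at day 7 and at 876.9 to 1357 CPM in the other 3 groups of that day. Ssr1 stood at 613.4 to 915.0 CPM at day 4, at 284.6 to 541.1 CPM on days 5, 6 and 9, at 1022 to 1244 CPM in KO under DMSO at day 7 and at 544.0 to 742.1 CPM in the other groups of that day. For Canx and Tmbim6 the KO libraries under DMSO thus had levels nearer to those of day 4 than to those of the other libraries of day 7. For Ssr1 they lay above every library of day 4, while the range of the other groups of day 7 overlapped that of day 4. Day and table cannot be told apart here, whether the KO libraries under DMSO were handled apart from the others of day 7 is not given in the sources used here, and no test was made between tables. These genes were chosen after their values were seen.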
